A study of Mus musculus with 15 samples.

Results

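The haemoglobin and red cell genes measured here were the 5 genes Hbb-bs, Hbb-bt, Hba-a1, Hba-a2 and Alas2, taken by name from the 48795 genes listed for every sample. They were read in RNAseq libraries of invariant natural killer T (iNKT) cells, T cells that recognise lipids on CD1d, from WT C57BL/6 mice aged 6 weeks with no treatment and no transgene. The cells were sorted as positive for the CD1d tetramer loaded with PBS57 and for TCRβ, and negative for B220, CD11b, CD11c and CD8. Of the 15 libraries, 4 each came from thymus, spleen and mesenteric lymph nodes (mLN) and 3 from inguinal lymph nodes (iLN, replicates 2 to 4, replicate 1 not being analysed here). Batch 1 holds replicates 3 and 4 (8 libraries) and batch 2 holds replicates 1 and 2 (7 libraries). The study calls the samples of a tissue biological replicates, and whether a mouse or a pool of mice stands behind each is not given in the labels. Lymph nodes were digested with enzymes at 37 °C and thymus and spleen were pressed through a strainer, and this difference cannot be told apart from tissue. The sources used here state no lysis of red cells for this sort.

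Adult haemoglobin is a tetramer of 2 α and 2 β globin chains, each of which holds a haem group that binds oxygen. Mice of the C57BL/6 strain make the α chains from Hba-a1 and Hba-a2 and the β chains from Hbb-bs and Hbb-bt. Alas2 is the erythroid form of δ-aminolevulinate synthase, the rate-limiting enzyme of haem synthesis in red cell precursors. Globin transcripts dominate the RNA of reticulocytes, which carry RNA but no nucleus and leave the marrow for the blood, and the mouse spleen holds blood in its red pulp and can make red cells itself.

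In GRCm38 with the GENCODE M21 annotation, Hbb-bs (ENSMUSG00000052305, chromosome 7 from 103826534 to 103828096, minus strand) and Hbb-bt (ENSMUSG00000073940, chromosome 7 from 103812524 to 103813996, minus strand) lie beside each other in the β globin locus. Hba-a1 (ENSMUSG00000069919, chromosome 11 from 32283511 to 32284465, plus strand) and Hba-a2 (ENSMUSG00000069917, chromosome 11 from 32296489 to 32297298, plus strand) lie in the α globin locus, and all of these protein-coding genes have 3 exons. Alas2 (ENSMUSG00000025270, X chromosome from 150547375 to 150570638, plus strand) has 11 exons.

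The partners of each pair are nearly the same gene, which limits how far their values can be told apart. The coding sequences of Hbb-bs and Hbb-bt differ at 1 of 444 bases, C417T (Hbb-bs base, position from 1 at the start codon, Hbb-bt base), and those of Hba-a1 and Hba-a2 at 1 of 429 bases, C381T (Hba-a1 base, position, Hba-a2 base). The 60 bases around each difference, from the annotated transcripts, are shown with the base that differs in capitals, since fragments within such stretches carry little that assigns them to a gene. The stretch is coding bases 385 to 444 of the β pair and 351 to 410 of the α pair.
Hbb-bs: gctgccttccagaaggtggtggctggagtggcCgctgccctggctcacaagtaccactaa
Hbb-bt: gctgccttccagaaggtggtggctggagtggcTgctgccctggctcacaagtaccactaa
Hba-a1: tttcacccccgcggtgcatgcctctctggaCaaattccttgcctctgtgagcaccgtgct
Hba-a2: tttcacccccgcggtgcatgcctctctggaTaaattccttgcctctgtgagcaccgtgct
Of all stretches of 100 bases in the longest mRNA of Hbb-bs, 62.6% occur unchanged in Hbb-bt, and 54.8% of those of Hbb-bt occur in Hbb-bs. For Hba-a1 the share is 56.5%, and for Hba-a2 it is 74.5%. The authors quantified with RSEM, which shares a fragment that aligns to several genes between them, so the split within a pair is an estimate while the sums over a pair do not rest on it.

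The 4 globin genes all had their 3 highest levels in spleen replicates 1 to 3, and the 250 bases before the RefSeq start of each member (build GRCm38.p6) were therefore read for 4 short motifs. These were GATAA, which GATA factors bind, CACCC, which factors of the KLF family bind, CCAAT, which NF-Y binds, and TATAA, the TATA box. Each was searched on both strands. Capitals mark the matches on either strand, for Hbb-bs (chr7:103827929-103828178, minus strand), Hbb-bt (chr7:103813924-103814173, minus strand), Hba-a1 (chr11:32283422-32283671, plus strand) and Alas2 (chrX:150547167-150547416, plus strand).
Hbb-bs: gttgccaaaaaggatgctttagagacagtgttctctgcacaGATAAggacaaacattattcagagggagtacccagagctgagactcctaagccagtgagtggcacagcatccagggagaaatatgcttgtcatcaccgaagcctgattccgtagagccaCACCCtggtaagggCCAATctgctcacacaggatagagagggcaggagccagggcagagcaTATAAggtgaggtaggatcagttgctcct
Hbb-bt: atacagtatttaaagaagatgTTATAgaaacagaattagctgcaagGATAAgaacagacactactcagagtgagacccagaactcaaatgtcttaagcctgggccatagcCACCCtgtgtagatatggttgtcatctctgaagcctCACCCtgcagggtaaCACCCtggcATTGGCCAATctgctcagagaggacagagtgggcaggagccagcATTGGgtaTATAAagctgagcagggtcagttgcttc
Hba-a1: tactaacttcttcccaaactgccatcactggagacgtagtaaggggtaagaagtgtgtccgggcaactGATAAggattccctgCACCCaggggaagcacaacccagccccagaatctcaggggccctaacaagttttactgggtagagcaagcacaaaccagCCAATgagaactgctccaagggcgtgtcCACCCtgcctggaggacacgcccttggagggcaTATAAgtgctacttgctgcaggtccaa
Alas2: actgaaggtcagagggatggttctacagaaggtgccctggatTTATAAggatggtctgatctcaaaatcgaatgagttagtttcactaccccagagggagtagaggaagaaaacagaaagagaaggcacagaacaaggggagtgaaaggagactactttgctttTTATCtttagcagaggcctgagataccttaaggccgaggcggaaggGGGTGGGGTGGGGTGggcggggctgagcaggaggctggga
The window of Hba-a2 (chr11:32296242-32296491, plus strand) aligns to that of Hba-a1 with 0 mismatches and 6 gapped positions, whereas the windows of Hbb-bs and Hbb-bt are 69.3% identical. The 4 globin windows each hold all 4 motifs, as do 0.968% of the 32851 promoters in the same table, and Alas2 holds 3, without CCAAT. Among all promoters, GATAA is found in 22.6%, CACCC in 52.0%, CCAAT in 33.8% and TATAA in 22.8%. TATAA begins 29 bases before the start in Hbb-bs, 28 in Hbb-bt, 27 in Hba-a1 and 30 in Hba-a2, and CCAAT begins 76, 75, 88 and 91 bases before it. In Alas2, the 2 TATAA matches lie on opposite strands and overlap, and the 3 CACCC matches, all on the opposite strand, adjoin each other. GENCODE annotates the starts of some transcripts of these genes elsewhere, and a match of letters is a description and not a binding site.

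Total expected counts per library were between 1152702 (thymus replicate 2) and 8670570 (spleen replicate 1), with a median of 5327351, and 13600 genes passed edgeR's filter on low counts, all 5 members among them. Levels are given in expected counts, which are RSEM's estimates of fragments, and as CPM, the usual count scaled for depth, with library sizes from edgeR's TMM method. A count of 0 allows up to 3 counts, which is 0.296 to 0.826 CPM in 14 libraries and 2.21 CPM in thymus replicate 2. The 5 genes together held 0.00685% ± 0.00369 (SD, n = 4) of the counts in spleen, 0.00101% ± 0.000579 (SD, n = 4) in thymus, 0.000131% ± 8.38e-05 (SD) in the 4 mLN libraries and 0.000231% ± 0.000247 (SD) in the 3 iLN libraries. In these bulk samples, fewer cells that carry a transcript and less of it per cell cannot be told apart.

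Hbb-bs, the more abundant β globin gene, was found in every spleen library, in 3 of 4 thymus libraries and hardly in lymph nodes. Its expected counts were 275, 313, 264 and 73.6 in spleen replicates 1 to 4, 78.0, 7, 28.5 and 0 in thymus replicates 1 to 4, 0 in all 4 mLN libraries, and 2, 0 and 0 in iLN replicates 2 to 4. In CPM these were 27.1, 47.1, 65.8 and 14.97 in spleen, 9.63, 5.15, 7.85 and 0 in thymus, and 0.359 in iLN replicate 2. The lowest spleen library lay above the highest thymus library, and thymus overlapped with iLN only through the thymus library at 0. Hbb-bt, the second β globin gene, had 98.9, 110, 69.0 and 7.39 counts in spleen, 18.0, 0, 6.51 and 0 in thymus, 1 in mLN replicate 1 and 0 in the other lymph node libraries. Spleen replicate 4, at 1.503 CPM, lay below thymus replicates 1 and 3, at 2.22 and 1.79 CPM, so that spleen and thymus overlapped for this gene.

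The α globin genes had the same order of spleen libraries in CPM as the β genes. Hba-a1 had 27.2, 81.2, 54.9 and 6.08 counts in spleen, which are 2.68, 12.2, 13.7 and 1.24 CPM. It had 4.77 and 1.56 counts in thymus replicates 1 and 3, 1 count in mLN replicate 2, 1.21 in iLN replicate 2 and 0 in the other libraries, so that the 4 spleen libraries had the highest measured levels. The 0 in thymus replicate 2 allows up to 2.21 CPM, above spleen replicate 4. Hba-a2 had 62.8, 128, 82.1 and 22.9 counts in spleen (6.20, 19.2, 20.5 and 4.66 CPM) and 8.23, 2, 13.4 and 3 in thymus (1.02, 1.47, 3.70 and 0.569 CPM). It was the globin gene found in all 4 thymus libraries. In iLN replicate 2 it had 18.8 counts, or 3.37 CPM, within the range of thymus, and it was at 0 in the other 2 iLN and all 4 mLN libraries.

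**Figure D1:**
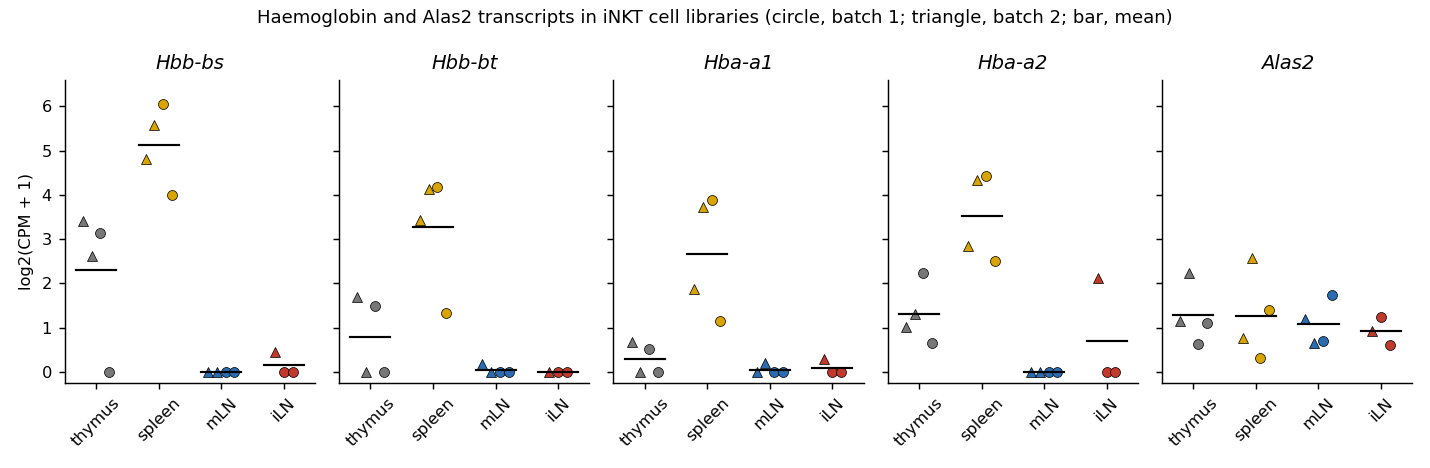
Level of each gene as log2(CPM + 1) in the 15 libraries, by tissue; points are libraries (circle for batch 1, triangle for batch 2) and bars are means. The 4 globin genes are highest in spleen and near 0 in lymph nodes except for Hba-a2 in iLN replicate 2, and Alas2 overlaps between all tissues.

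Summed over the 4 globin genes, the counts were 464, 632, 470 and 110 in spleen, 109, 9, 50 and 3 in thymus, 1, 1, 0 and 0 in mLN, and 22, 0 and 0 in iLN. The means were 70.1 ± 43.6 CPM (SD, n = 4) in spleen, 8.60 ± 6.29 (SD, n = 4) in thymus, 0.0687 ± 0.0796 (SD, n = 4) in mLN, and in iLN 1.32 ± 2.28 (SD, n = 3), the last from replicate 2 alone. Within spleen the summed level spread 5.23-fold, from 22.4 CPM in replicate 4 to 117 CPM in replicate 3. At a rate shared by the 4 spleen libraries, replicate 4 would have held 320 globin counts in place of 110, and replicate 3 would have held 262 in place of 470. Replicates 3 and 4, the extremes in CPM, are of the same batch.

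**Figure D2:**
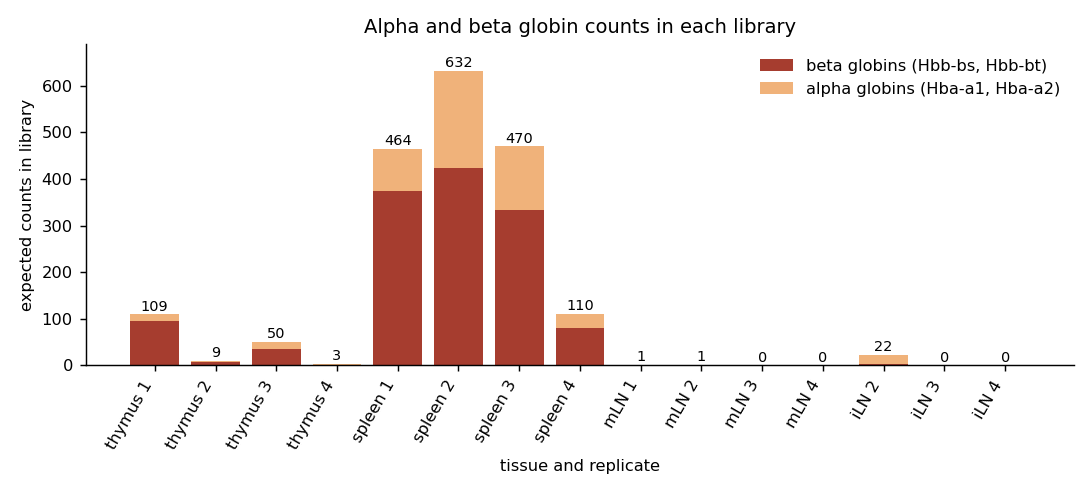
Expected counts of the β globin genes (dark) and the α globin genes (light) in each library, with the sum above each bar. Spleen libraries hold 110 to 632 counts, thymus libraries 3 to 109, mLN libraries at most 1, and iLN replicate 2 holds 22, mostly α.

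The share of β globin in the globin counts does not rest on the split within a pair. It was 80.6% (95% Wilson interval 76.8% to 83.9%), 66.9% (63.2% to 70.5%), 70.9% (66.6% to 74.8%) and 73.6% (64.7% to 81.0%) in spleen replicates 1 to 4, 88.1% (80.7% to 92.9%) in thymus replicate 1 and 70.0% (56.2% to 80.9%) in thymus replicate 3. The intervals cover counting error only, since reads without molecular identifiers are not independent molecules. iLN replicate 2 was different in its makeup, with 20 α counts and 2 β counts, a β share of 9.09% (2.53% to 27.8%), and its interval did not overlap with that of any spleen library or of either thymus library. Per length, in TPM, spleen replicates 1 to 4 had 134, 202, 158 and 43.8 for the β genes and 39.0, 127, 71.2 and 19.8 for the α genes, whereas iLN replicate 2 had 1.14 and 13.9. Within the β pair, Hbb-bs held 73.5%, 74.0%, 79.3% and 91.4% of the counts in spleen, and within the α pair Hba-a2 held 70.0%, 61.2%, 59.9% and 79.3%, shares that depend on RSEM's division of fragments.

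Alas2 was low in every library, and its levels overlapped between all tissues. It had 7, 33, 1 and 8 counts in spleen, 10, 5, 2 and 6 in thymus, 10, 4, 3 and 12 in mLN, and 5, 5 and 3 in iLN. Its means were 1.88 ± 2.13 CPM (SD, n = 4) in spleen, 1.65 ± 1.38 (SD, n = 4) in thymus, 1.203 ± 0.808 (SD, n = 4) in mLN, and in iLN 0.922 ± 0.421 (SD, n = 3), and neighbours in this order differed by less than their spread. Spleen replicate 3, the library with the highest globin CPM, had the fewest Alas2 counts, and mLN libraries with at most 1 globin count had 3 to 12 Alas2 counts. Across the 15 libraries, pairs of globin genes had a Pearson's r of 0.87 to 0.95 in log2(CPM + 1), and Alas2 with each globin gene had 0.050 to 0.16. These values describe libraries that share tissues, batches and depths, and the globin pairs share fragments.

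In most libraries RSEM's estimated share of Alas2 transcripts lay largely on forms shorter than the mRNA. This is a share of transcripts and not of fragments. GENCODE lists protein-coding transcripts of 2037 and 1892 bases, a retained-intron transcript of 485 bases and a processed transcript of 569 bases. The effective length that RSEM gave, an average over these transcripts weighted by their estimated share, was 1687 bases in thymus replicate 1 and 1857 in spleen replicate 3, but 571 in spleen replicate 2, which had the most counts, and between 296 and 381 in thymus replicates 2 and 3, mLN replicate 3 and iLN replicates 3 and 4. TPM, which divides by this length, ranked the libraries differently from CPM. Thymus replicate 2 was at 3.68 CPM and 19.7 TPM, whereas spleen replicate 2 was at 4.96 CPM and 12.2 TPM.

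**Figure D3:**
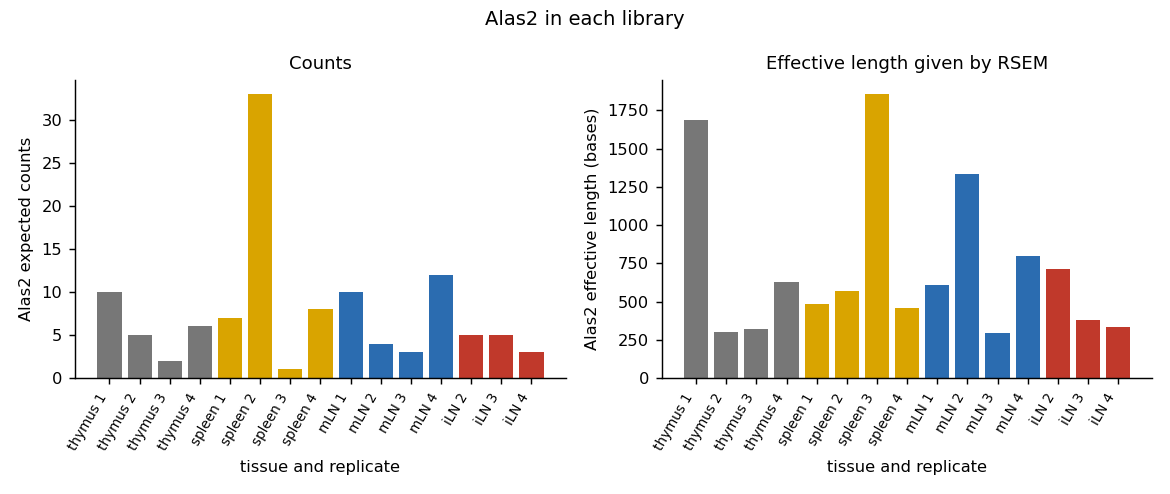
Alas2 expected counts (left) and the effective length RSEM gave it, in bases (right), in each library, coloured by tissue. Counts are between 1 and 33 and overlap between all tissues, and the effective length is between 296 and 1857 bases.

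Tissues were compared with edgeR's quasi-likelihood model over all 13600 genes with tissue and batch as factors, and the thresholds for a call were 0.01 for the Benjamini-Hochberg adjusted p and 1.5 for the fold change. Spleen against the mean of the other tissues called 4 of the 5 genes, all higher in spleen, where 0.471% of all genes were called higher. The log2 fold changes were 7.25 (SE 0.79, adjusted p = 6.0e-05, edgeR) for Hbb-bs, 6.59 (SE 0.94, adjusted p = 0.00063, edgeR) for Hbb-bt, 5.98 (SE 0.89, adjusted p = 0.00058, edgeR) for Hba-a1 and 5.29 (SE 0.90, adjusted p = 0.00365, edgeR) for Hba-a2. Alas2 was at 0.51 (SE 0.81, adjusted p = 0.878, edgeR). The median was 5.98 over the 5 genes and 0.02 over all genes tested. DESeq2 and limma on log2(TPM + 1) called 4 of the 5 in this contrast as well. Without spleen replicate 3, 1 of 4 genes that then passed the filter was called (Hbb-bs, log2 fold change 6.597, edgeR adjusted p = 0.00064), and without spleen replicate 2 it was 2 of 3.

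In mLN against spleen, 3 of the 5 genes were called lower in mLN, and 0.199% of all genes were. The log2 fold changes were −10.87 (SE 1.44, adjusted p = 0.00124, edgeR) for Hbb-bs, −9.30 (SE 1.68, adjusted p = 0.00922, edgeR) for Hba-a2 and −7.59 (SE 1.43, adjusted p = 0.00970, edgeR) for Hbb-bt. Hba-a1, at −7.05, missed the threshold (adjusted p = 0.0113, edgeR) but was called by DESeq2 (−7.24, adjusted p = 0.000192), by edgeR without the filter and by limma on log2(TPM + 1), and Alas2 was at −0.46 (adjusted p = 0.914, edgeR). Fitted values against libraries at 0 depend on the prior count and are no bounds. From counts pooled over a tissue, Hbb-bs was at least 295-fold higher in spleen than in mLN (926 counts against the floor of 3 over the group), Hba-a2 at least 94.4-fold higher, and the summed globins 802-fold higher (1676 counts against 2, 95% interval of counting error 222 to 6625). Leaving out any 1 spleen or mLN library, or thymus replicate 1 or 2, left only Hbb-bs called, and in the full set Hbb-bt and Hba-a2 lay close to the threshold.

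In iLN against spleen, 1 of the 5 genes was called lower, and 0.588% of all genes were. This was Hbb-bs, at −8.01 (SE 1.34, adjusted p = 0.00252, edgeR). Hbb-bt was at −8.89 (adjusted p = 0.0115, edgeR), Hba-a1 at −6.46 (adjusted p = 0.0217, edgeR), Hba-a2 at −3.69 (adjusted p = 0.142, edgeR) and Alas2 at −0.81 (adjusted p = 0.803, edgeR). Pooled, Hbb-bs had 926 counts in spleen and 2 in iLN, a ratio of 272 in CPM (95% interval of counting error 75.1 to 2250), whereas Hba-a2 had a ratio of 9.15 (5.76 to 15.4), with the iLN counts of that gene all from replicate 2. DESeq2 called 3 of the 5 in this contrast (Hbb-bs, Hbb-bt and Hba-a1), and the replicate block called 2. The call of Hbb-bs was lost without spleen replicate 3 or without any 1 of the 3 iLN libraries.

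In thymus against spleen, 0 of the 5 genes were called with edgeR, and 0.537% of all genes were called lower in thymus. The log2 fold changes of the 4 globin genes were between −2.87 and −4.44, with an unadjusted p under 0.05 for 4 of the 5 genes and for 1443 of all 13600, and DESeq2 called 0 and limma on log2(TPM + 1) 1. Hba-a1 had the lowest adjusted p (−4.44, SE 1.19, adjusted p = 0.0544, edgeR), and Hbb-bs was at −2.87 (SE 0.83, adjusted p = 0.0982, edgeR). Pooled CPM was higher in spleen by 5.85-fold for Hbb-bs (4.81 to 7.18), 8.14-fold for Hbb-bt (5.40 to 12.8), 20.1-fold for Hba-a1 (9.05 to 55.6), 7.83-fold for Hba-a2 (5.27 to 12.1) and 1.52-fold for Alas2 (0.909 to 2.62), with intervals of counting error that hold none of the spread between libraries. Without the filter on low counts, Hbb-bs and Hba-a1 were called.

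In mLN against thymus, 1 of the 5 genes was called lower in mLN (Hbb-bs, −8.01, SE 1.503, adjusted p = 0.00583, edgeR), and 0.779% of all genes were. Hba-a2, at −6.43, had an adjusted p of 0.0601 (edgeR). The call was lost without any 1 of the 4 mLN libraries or without thymus replicate 1, 2 or 3. In iLN against thymus, where 0.625% of all genes were called lower in iLN, edgeR and DESeq2 called 0 of the 5 genes, and 2 had an unadjusted p under 0.05, as had 2244 of all 13600. Hbb-bs was at −5.15 (SE 1.33, adjusted p = 0.0451, edgeR), and was called without thymus replicate 4, the thymus library in which it was at 0. In iLN against mLN, where 0.471% of all genes were called in either direction, edgeR and DESeq2 called 0 of the 5, and 1 had an unadjusted p under 0.05 (Hba-a2, 5.60, SE 1.77, adjusted p = 0.139, edgeR), which rests on iLN replicate 2 and was at −0.17 without it. There 1876 of all 13600 genes had an unadjusted p under 0.05. The test over the 4 tissues together called 4 of the 5 genes, the 4 globin genes, and 3.38% of all genes. The comparisons that share a tissue share its libraries and are not independent.

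**Figure D4:**
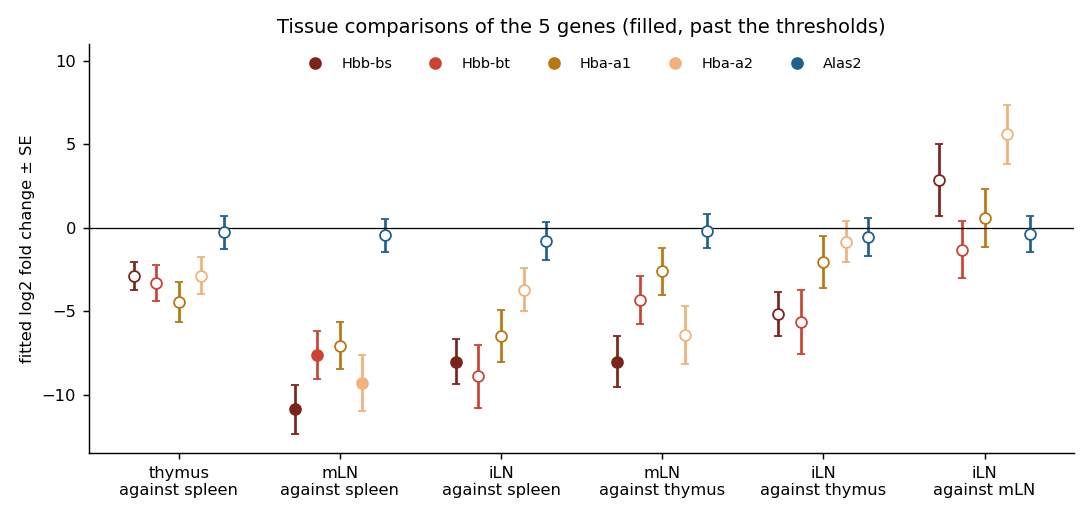
Fitted log2 fold change ± SE of the 5 genes in the 6 comparisons between tissues; filled points passed both thresholds. The globin genes lie below 0 in mLN and iLN against spleen, at −3.69 to −10.87, and Alas2 lies within 1 of 0 in each comparison.

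With the fragments of each pair summed before the fit, the β genes were at −9.77 (SE 1.22, adjusted p = 0.00026, edgeR) in mLN and −8.36 (SE 1.27, adjusted p = 0.00071, edgeR) in iLN against spleen, and at −2.96 (SE 0.76, adjusted p = 0.0426, edgeR) in thymus against spleen. The α genes were at −8.53 (SE 1.40, adjusted p = 0.00361, edgeR), −4.30 (SE 1.18, adjusted p = 0.0475, edgeR) and −3.31 (SE 0.99, adjusted p = 0.102, edgeR) in the same comparisons. The sums, which do not rest on the split within a pair, gave calls for both pairs in mLN against spleen and in spleen against the mean of the other tissues, and for β globin in iLN against spleen and in mLN against thymus (−6.80, SE 1.24, adjusted p = 0.00302, edgeR). Within batches, Hbb-bs averaged 40.4 CPM in spleen and 3.92 in thymus in batch 1, and 37.1 and 7.39 in batch 2, with 0 in mLN in both. Spleen against the mean of the other tissues was at 8.21 (adjusted p = 0.0665, edgeR) for Hbb-bs in batch 1 alone and at 6.62 (adjusted p = 0.0101, edgeR) in batch 2 alone, the same direction with neither batch past the threshold. Alas2 averaged 0.938 CPM in spleen in batch 1 and 2.83 in batch 2.

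Many of the other red cell genes listed had few counts and did not pass the filter, whereas some that many cells use were as high as the globins. The 8 embryonic and other globin genes listed (Hba-x, Hbq1a, Hbq1b and the minor Hbb genes) were at 0 in every library. Slc4a1, the band 3 anion exchanger of the red cell membrane, had 21, 26, 3 and 1 counts in spleen, 4 in thymus replicate 1 and 0 in all 7 lymph node libraries. Car2, a carbonic anhydrase, had 3, 61, 3 and 4 counts in spleen, 7 in thymus replicate 4 and 0 elsewhere. Slc4a1 and Car2 thus had most of their counts in spleen, but in another order of libraries than the globins. Spleen replicate 3, highest in globin CPM, had 3 counts of each. Other genes of the membrane list did not have most counts in spleen. Sptb averaged 13.0 CPM in mLN, 5.19 in iLN, 3.97 in thymus and 2.86 in spleen. It was at −1.37 in spleen against the mean of the other tissues (adjusted p = 0.594, edgeR). Ank1 averaged 1.75 CPM in spleen and 1.55 in iLN, and Kel and Add2 had counts in mLN alone, each in a single library.

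Most of the erythroid transcription factors had few counts, and they were not alike in pattern. Gata1 had 8, 11, 0 and 0 counts in spleen, 5 and 3 in mLN replicates 1 and 3 and 8 in iLN replicate 3, and Klf1, which activates adult β globin, had 2 in spleen replicate 2 and 1 in mLN replicate 3. Nfe2 had 5, 1, 4 and 1 counts in spleen and 0 in the other 11 libraries, and Tal1 had 5 in spleen replicate 1 alone. Lmo2, a partner of these factors, had 30, 30, 10 and 0 counts in spleen, 9 in thymus replicate 4, 1 and 5 in iLN replicates 2 and 3 and 0 in mLN, and was at 4.11 in spleen against the mean of the other tissues (SE 1.33, adjusted p = 0.144, edgeR). Gfi1b was at 0 in every library, and Epor, the erythropoietin receptor, had 2 counts in all of spleen and 2 in all of thymus.

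The filter left 5 of the 16 red cell membrane genes listed, 9 of the 17 genes of red cell cytoplasm and maturation, of which 15 were found, and 2 of the 8 erythroid transcription factor and receptor genes. The membrane list was led by Cd47, which marks cells as self, at 135 TPM over all libraries, Epb41 at 55.1 and Gypc at 11.02. The cytoplasm list was led by Bnip3l, which acts in the removal of mitochondria, at 69.2 TPM, Prdx2 at 54.9 and Mkrn1 at 53.5, and the factor list by Zfpm1 at 16.5, above Lmo2 at 0.877 and Gata1 at 0.43. In spleen, Cd47 averaged 163 TPM and Bnip3l 55.1, beside 107 for Hbb-bs.

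The rest of the haem pathway was measured well and, taken as lists, did not have the pattern of the globins. The 8 other enzymes of haem synthesis were all tested, with Urod (20.1 TPM over all libraries), Fech (8.66) and Alas1 (8.51), the housekeeping form of the enzyme that Alas2 encodes, as the highest. Their summed level was 67.8 to 94.7 CPM in spleen, 78.0 to 95.0 in thymus, 62.7 to 99.6 in mLN and 47.2 to 83.5 in iLN, and the tissues overlapped. All 10 genes of iron and porphyrin transport were tested, led by Slc11a2 (28.6 TPM), Tmem14c (22.4) and Tfrc, the transferrin receptor (17.3), with summed levels of 220 to 293 CPM in spleen, 229 to 316 in thymus, 222 to 273 in mLN and 172 to 233 in iLN. Over the 5 lists of haem synthesis, transport, membrane, cytoplasm and transcription factors, 34 genes were tested. In spleen against the mean of the other tissues edgeR called 0, DESeq2 called 1, a gene of the transport list, and limma called 0. An unadjusted p under 0.05 was found for 7 of these 34 genes and for 1794 of all 13600. The list medians in that contrast were −0.01 for haem synthesis, −0.01 for transport, −0.04 for membrane, −0.02 for cytoplasm and 1.97 for the 2 transcription factor genes, against 0.02 over all genes tested.

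In the pairs of tissues, edgeR called 3 of these 34 genes, each in 1 comparison. Slc25a37, which imports iron into mitochondria for haem synthesis, fell by 1.54 on the log2 scale in iLN against spleen (adjusted p = 0.00735, edgeR), from 68.9 ± 11.3 CPM (SD, n = 4) in spleen to 22.3 ± 8.15 (SD, n = 3) in iLN. It averaged 43.1 CPM in thymus and 41.0 in mLN, so that its mean was highest in spleen, as for the globins. In spleen against the mean of the other tissues Slc25a37 was at 0.99 (SE 0.21, adjusted p = 0.0152, edgeR), short of the threshold. Its highest thymus library, at 63.4 CPM, lay above its lowest spleen library, at 59.4 CPM. Ppox, protoporphyrinogen oxidase, was at −4.35 in iLN against thymus (adjusted p = 0.00666, edgeR), with 0, 1 and 12 counts in the iLN libraries and 13 to 180 in thymus. Tent5c, a poly(A) polymerase, rose by 0.96 in mLN against thymus (adjusted p = 0.00776, edgeR), the direction opposite to that of Hbb-bs in this comparison.

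Genes of other cells that a spleen suspension could hold were read beside the globins. The red pulp macrophage list (12 genes, 4 tested), the cells that take up old red cells, summed to 26.5 to 57.4 CPM in spleen, above the 14.6 to 18.7 of thymus, 8.30 to 15.5 of mLN and 10.6 to 14.3 of iLN. Slc40a1, the iron exporter of these cells, had 132, 4, 0 and 5 counts in spleen, Mertk 52, 1, 0 and 1, Hmox1 51, 12, 9 and 12, and Vcam1 57, 3, 14 and 16, while Mertk and Adgre1 were at 0 in every lymph node library. Other members did not have this order. Spic, a transcription factor of red pulp macrophages, averaged 2.59 CPM in spleen, 2.45 in thymus, 1.56 in mLN and 2.40 in iLN, and C1qc, a complement gene, 0.511 in spleen and 1.13 in iLN. Axl, a receptor for dying cells and the highest of the list at 5.10 TPM over all libraries, averaged 20.3 CPM in spleen, 13.6 in thymus, 9.95 in mLN and 7.40 in iLN. It had counts in every library and on average made up most of the list's sum in thymus, mLN and iLN. In spleen against the mean of the other tissues edgeR and DESeq2 called 0 of the 4 genes tested, where 3 had an unadjusted p under 0.05, the exception being Spic. This list was highest in spleen replicate 1 and the globins in spleen replicate 3, and spleen was above the other tissues in both. Its part in the globin result was not tested.

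The B cell list (12 genes, 9 tested) summed to 517 CPM in spleen replicate 1 and to 237 to 248 in the other spleen libraries, beside 114 to 207 in thymus, 171 to 236 in mLN and 242 to 279 in iLN. Pax5 had 373, 45, 3 and 5 counts in spleen, and Ighm, at 162 TPM over all libraries, Igkc at 79.9 and Ighd at 5.74 led the list. Not all of its genes were highest in spleen. Blk averaged 34.1 CPM in iLN and 3.47 in spleen, and Ighm 199 in iLN and 209 in spleen. The T cell and iNKT list (10 genes, all tested) summed to 3441 CPM in spleen replicate 1, below the 4517 to 5801 of the other 14 libraries, and was led by Trac at 2839 TPM, Trbc2 at 1827 and Trav11 at 1765. Without spleen replicate 1, Hbb-bs was at 7.52 in spleen against the mean of the other tissues (adjusted p = 0.00022, edgeR), Hbb-bt at 6.72 (adjusted p = 0.00205, edgeR) and Hba-a2 at 5.66 (adjusted p = 0.00538, edgeR), all still called, and Hba-a1 no longer passed the filter. Spleen replicates 2 to 4 also held macrophage and B cell genes, the macrophage list at 33.7, 38.1 and 26.5 CPM. The part of these cells in the globin result was not tested.

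Platelets, which also carry RNA in blood, left few counts: none of the 7 platelet genes was tested, 2 were at 0 in every library and 5 in every lymph node library, and the list summed to 0.407 to 4.81 CPM in spleen, 0.379 to 3.58 in thymus, 0 to 0.725 in mLN and 0 to 0.271 in iLN. Ppbp had 27, 26, 4 and 0 counts in spleen, and was at 4 in the library highest in globin. It led the list at 0.885 TPM over all libraries, above Itga2b at 0.653 and Pf4 at 0.454. The monocyte and neutrophil list (10 genes, 3 tested) summed to 55.2 to 98.9 CPM in spleen, below the 147 to 261 of thymus, where Ly6c2 was 1.71 higher on the log2 scale (adjusted p = 0.00061, edgeR), beside 23.1 to 72.6 in mLN and 75.9 to 117 in iLN. Ly6c2 alone averaged 200 CPM in thymus and 61.1 in spleen, so that the order of these sums was largely its own. Other genes of the list went the other way. Lyz2, lysozyme, was at −5.86 in thymus against spleen (adjusted p = 0.00997, edgeR), with 437, 64, 26 and 13 counts in spleen. Csf1r averaged 2.98 CPM in spleen and 1.33 in thymus. S100a8, at 1.07 TPM over all libraries, had 25 counts in spleen, all from a single library, and 4 in thymus. The immature thymocyte list (7 genes, 5 tested) summed to 21.9 to 71.9 CPM in thymus, 10.2 to 41.3 in spleen, 12.6 to 19.0 in mLN and 12.0 to 14.3 in iLN, and its Rag1 was higher in thymus than in spleen by 7.86 (adjusted p = 0.00118, edgeR). Its highest genes were Cd1d1 at 10.2 TPM, Cd8b1 at 2.56 and Cd8a at 2.36. The parts of these lists in the globin results were not tested.

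**Figure D5:**
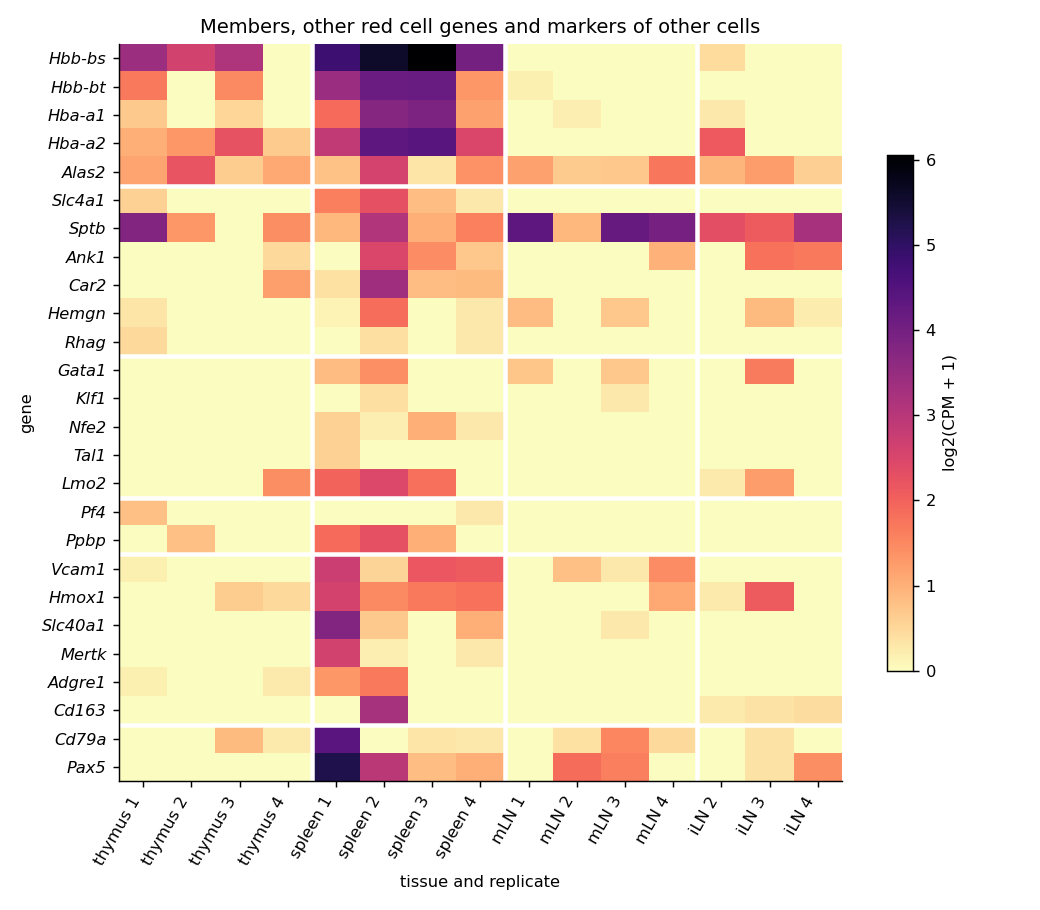
Level as log2(CPM + 1) of the 5 genes and, below the white lines, of other red cell genes, erythroid transcription factors, platelet, macrophage and B cell genes in the 15 libraries. The globin rows are darkest in spleen replicates 1 to 3 and paler in spleen replicate 4. Most macrophage and both B cell rows are darkest in spleen replicate 1, Slc4a1 in spleen replicates 1 and 2, and Sptb in mLN replicate 1.

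The genes most like the members were ranked among 13464 others by Pearson's r, over the 15 libraries, of log2(CPM + 1) with the summed CPM of the members. The first 8 were Gm42648 (r = 0.855), Wdr66 (0.831), Cd160 (0.824), Gm17227 (0.823), Mob3b (0.820), 1700027F09Rik (0.800), Gm20939 (0.797) and Slc2a3 (0.792). None of these is in the lists of red cell genes. Cd160, a surface receptor of cytotoxic lymphocytes, was at 97.4 to 147 CPM in spleen, 47.1 to 71.1 in thymus, 35.6 to 62.5 in mLN and 23.6 to 29.2 in iLN. Slc2a3, a glucose transporter, was at 161 to 177 CPM in spleen, 96.4 to 118 in thymus, 66.9 to 110 in mLN and 31.1 to 88.8 in iLN. Both were highest in spleen, as the globins were, and a correlation over libraries that share tissues describes little beyond that.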

How the data were processed

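RNAseq of iNKT cells gave 15 samples with files. The authors trimmed reads with Cutadapt 1.7.1 and ran RSEM 1.2.31 with Bowtie2 2.2.9 on GRCm38, and deposited RSEM's expected count per gene, an estimate of its fragments. The deposited TPM values are these counts per effective length, scaled to the same sum in each sample. The deposited FPKM values were not used.

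The members and gene lists were chosen with earlier results of these data known. Expected counts were rounded, filtered with filterByExpr (13600 genes of 48795), normalized with TMM (factors 0.755 to 1.18) and fitted with the quasi-likelihood model of edgeR 4.0.16 (limma 3.58.1, R 4.3.3) on tissue and batch, tested on simulated data. SE came from the fitted model. Gene symbols were matched for 48349 identifiers. Genes named were the members, list genes called in any comparison, the 3 highest of each list by TPM and the 8 most correlated genes. Others, given for their counts, were chosen after their values were seen. Some list genes are not reported here by name. Intervals of shares are Wilson, and those of pooled ratios exact binomial, at 95%.

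Alternatives were DESeq2 1.42.0, RLE, no filter, a minimum of 10 counts, no batch, the replicate block, only the tissues compared, thinning, no rRNA genes, library sizes without the members, limma on log2(TPM + 1) and log2(TPM + 0.1), pairs summed and leaving out each replicate number. Leaving out each single library and each batch alone were added after seeing the data.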

Additional observations from a re-analysis of the deposited data

How the results depend on the processing

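Counts of called members are given as edgeR's unless another tool is named. Thymus against spleen had 0, but 2 without the filter, 1 after thinning to the smallest library (3 members tested) and 1 with limma on log2(TPM + 1). mLN against spleen had 3, but 4 with DESeq2, without the filter and with limma on log2(TPM + 1), 2 with limma on log2(TPM + 0.1), 2 without rRNA genes, 1 with no batch covariate, 1 with only the tissues compared (2 members tested) and 0 to 3 when libraries or replicate numbers were left out. iLN against spleen had 1, but 3 with DESeq2, 4 without the filter, 3 with limma on log2(TPM + 1) and 0 to 2 on leaving out. mLN against thymus had 1, but 2 with DESeq2, 2 without the filter, 0 after thinning, 0 with either limma fit and 0 to 1 on leaving out. iLN against thymus had 0, but 1 without the filter and 0 to 1 on leaving out, and iLN against mLN had 0, but 1 without the filter. The 4 tissues together had 4 and 0 to 4 on leaving out, and spleen against the other tissues had 4 and 1 to 4, with 2 of 3 tested in each when pairs were summed. Batch 1 alone, with 2 members tested, gave 0 in mLN against spleen, iLN against spleen, mLN against thymus, the 4 tissues and spleen against the others, and batch 2 alone gave 0, 0, 0, 1 and 0. A minimum of 10 counts in every sample left no member. By TPM the members' share was 0.00365% in thymus, 0.0203% in spleen, 0.000270% in mLN and 0.000754% in iLN. Beyond alternatives that test fewer genes or samples, the cause of these changes was not tested.

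Uncalled fold changes turned their sign as follows. Alas2 turned to 0.081 (TPM + 1) and 0.36 (TPM + 0.1) in thymus against spleen, to 0.21 (TPM + 0.1) in iLN against spleen, to 0.18 without mLN replicate 2 in mLN against thymus (−0.85 to 0.18 over all libraries and numbers left out), to 0.18 (TPM + 1), 0.33 (TPM + 0.1) and 0.83 (without replicate 4, lowest −0.99 on leaving out) in iLN against mLN, and to −0.15 (TPM + 0.1) in spleen against the others. Hba-a2 turned to 0.37 (without replicate 3), 0.13 (without thymus replicate 3) and 1.52 (batch 2 alone) in iLN against thymus (lowest −6.55 on leaving out), and to −0.35 (without replicate 2) and −0.17 (without iLN replicate 2) in iLN against mLN (highest 6.36). There Hba-a1 turned to −0.10 and −1.19 in the same settings (highest 1.92), and Hbb-bt to 0.13 (thinned), 0.00048 (TPM + 1) and 0.017 (without mLN replicate 1, lowest −1.75).

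Same-numbered samples had deviations from tissue means with r over 0.1 in 14 of 21 pairs (lowest 0.0015, mean 0.122), beside a mean of 0.107 between other numbers of a batch and −0.111 between batches, so that the numbers were not taken to pair samples. With the replicate block, 2 members were called in iLN against spleen, and the count of members called changed in no other comparison. Depth limits the lymph node values, where a count of 0 allows up to 3 counts.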
